A study of Mus musculus with 30 samples.

Results

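The response to insulin was analysed in AML12 cells, a mouse hepatocyte line, in which FoxK1 and FoxK2 had been depleted together (double knockdown, DKD). Samples were taken by their labels: 4 basal DKD cultures, listed as untreated with a time of 0 min, and 3 DKD cultures given 100 nM insulin for 6 h. These were 7 of the 30 samples of the series, each with counts for every gene. Depletion was by transient transfection of siRNA, so that DKD cells were transfected cells of 1 line and kept part of both transcripts. All cultures, Control cells with a non-silencing siRNA included, were starved of serum overnight, and the treatment protocol describes the cells without insulin as mock treated over the same period, which the 0 min in the labels does not show. Control cells, 4 basal and 3 given the same insulin, share no sample with DKD cells. They served as the reference for the depletion, for the comparison of insulin effects and for a few further transcripts. Their samples were also part of the model of all 30 samples. The labels do not say that replicates came from separate experiments. The p-values therefore measure a spread between cultures that may be technical, pooled over the 8 groups of all 30 samples. The comparison asks which transcripts insulin changed when both FoxK proteins were reduced.

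Insulin binds a receptor tyrosine kinase that acts through the IRS proteins, PI 3-kinase and Akt. Akt sends FoxO factors out of the nucleus, which lowers the transcription of fasting genes, while mTORC1 and the SREBP factors raise the synthesis of protein, lipid and nucleotides. FoxK1 and FoxK2 are forkhead factors of another family, known for repressing autophagy genes and for raising glycolysis genes.

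Both targets were lower in every DKD sample than in any Control sample of the same treatment. Foxk1 was counted at 44.2, 49.7, 49.1 and 42.9 CPM (counts scaled to the size of each library, with TMM adjustment) in the basal DKD samples and at 30.5, 31.3 and 40.9 after insulin stimulation. Foxk2 was at 52.0, 54.7, 52.3 and 41.9 CPM at basal and at 59.0, 66.2 and 67.6 after insulin. The DKD means were 57.1% (basal) and 64.6% (insulin) of the Control means for Foxk1, and 35.8% and 39.5% for Foxk2. Between 2141460 and 4455447 reads per DKD sample were counted on genes, and 11368 genes were tested.

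The hepatocyte label was checked against its markers. Hnf4a, a hepatocyte lineage factor, was at 141 to 148 CPM at basal and 137 to 143 after insulin, and Apob, the protein of liver lipoproteins, at 418 to 465 and 511 to 681. Albumin (Alb), in contrast, reached only 3.78 to 11.1 CPM over the 7 samples, and Apoa1 and Apoe did not pass the filter on low counts. Of 13 hepatocyte markers 11 were tested, and their summed level was 2826 to 2906 CPM at basal and 2411 to 2805 after insulin. Most of that sum was Krt18 (keratin 18), at 1323 to 1480 CPM at basal and 854 to 1014 after insulin, and Krt8, at 684 to 852 and 706 to 911. Krt18 fell by 0.59 on the log2 scale and was the only one of the 11 that fell. Trf, described below, was the only one that rose. Some markers of bile duct cells were also present, with Krt19 at 420 to 553 CPM over all 7 samples. The summed level of the 6 markers was 1695 to 1969 CPM at basal and 2066 to 2720 after insulin. Most of that sum was Spp1 (osteopontin), at 998 to 1324 and 1391 to 2020 CPM. Spp1 rose by 0.52 on the log2 scale, but not without insulin replicate 2 (edgeR adjusted p = 0.0798). Krt7 was at 28.7 to 38.9 CPM at basal and 22.1 to 28.05 after insulin, and Sox9 at 176 to 198.5 and 177 to 182. Cftr was at most at 2.71 CPM and Epcam at 0. The part of these shifts in the results was not tested. Fewer cells of a type and less RNA per cell cannot be told apart in such bulk samples. Stellate cell and endothelial markers summed to at most 1.44 CPM in any sample, with 5 of 8 and 4 of 6 of them at 0 throughout.

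Insulin changed the level of 1853 genes in DKD cells (16.3% of those tested) at an adjusted p under 0.05, from the quasi-likelihood test of edgeR and the Benjamini-Hochberg method. Of these, 945 rose (8.31%) and 908 fell (7.99%), with 594 and 570 left without DKD insulin replicate 2. Under the rule of the study, an adjusted p under 0.25 with a change of more than 1.5-fold, 535 genes were upregulated (4.71%) and 430 downregulated (3.78%). Among genes with at least 10 counts in every sample, a smaller set, these numbers were 302 and 250. Changes were mostly small: the median size among the 1853 genes was 0.49 on the log2 scale, with 80 genes raised and 63 lowered by more than 2-fold. The basal and insulin samples did not overlap in 1704 of the 1853 genes and in 28.7% of all genes tested, the 1853 included. The calls rest on these same samples, so that this adds no support to them. The first principal component of the 7 samples held 41.9% of the variance and separated basal scores of -18.9 to -10.9 from insulin scores of 16.8 to 26.2. In what follows, "rose" and "fell" refer to an edgeR adjusted p under 0.05, and the shares of 8.31% and 7.99% are the background for every count of list members below. Of 151 named genes that passed, 95 also passed in each of the 7 fits that left out 1 DKD sample, and the others are pointed out where they are named. The median log2 fold change of all tested genes was 0.0046. GC content moved with direction across genes: its median was 47.0% in genes that rose, 52.2% in genes that fell and 49.3% in all tested genes, and its part in the results was not tested beyond the correction given with the alternatives.

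**Figure D1:**
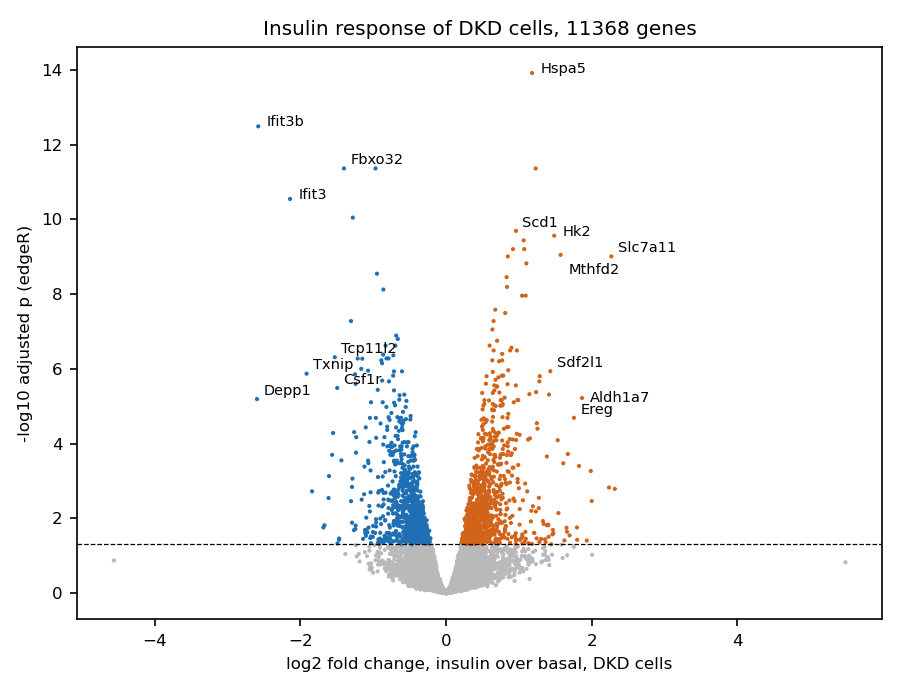
Log2 fold change of insulin over basal in DKD cells against -log10 of the edgeR adjusted p, for the 11368 genes tested. Each point is a gene, the dashed line marks an adjusted p of 0.05, orange points rose (945), blue points fell (908) and grey points did not pass, with Hspa5 at the top and Depp1 and Ifit3b farthest to the left among those that passed.

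Genes that FoxO factors raise in fasting fell in part, and none of them rose. Of 19 tested members of this list, 5 fell (26.3%), with a median log2 fold change of -0.24. The number that fell was 4 to 6 without 1 sample and 2 to 7 under other settings, with 2 when at least 10 counts were asked of every sample. Depp1 (chr6:116650609-116652794, GRCm38), a FoxO target linked to autophagy and peroxisomes, was at 10.6, 10.8, 12.03 and 14.6 CPM at basal and at 1.46, 2.32 and 2.21 after insulin. Every insulin sample was thus far below every basal sample, and the log2 fold change was -2.60 (SE 0.38, edgeR adjusted p = 6.41e-06). Txnip, an inhibitor of thioredoxin and of glucose uptake, went from 15.2, 11.3, 16.2 and 12.6 CPM to 2.68, 5.03 and 3.54, a log2 fold change of -1.92 (SE 0.25, edgeR adjusted p = 1.34e-06). Fbxo32 (atrogin-1), a ubiquitin ligase of muscle wasting, went from 97.9, 91.3, 111 and 100 CPM to 38.8, 41.0 and 34.3, or 37.9% of basal (log2 fold change -1.40, SE 0.10, edgeR adjusted p = 4.31e-12). Both left no overlap between the groups. Klf15, a fasting-induced activator of amino acid breakdown, fell by 1.25 on the log2 scale, but basal replicate 4 (3.85 CPM) lay below insulin replicate 1 (3.90). Its edgeR adjusted p of 0.0193 became 0.0737 without basal replicate 1, 0.0782 without basal replicate 3 and 0.116 without insulin replicate 3. Genes that usually head this list could not be tested. The gluconeogenic genes G6pc and Pck1 did not pass the filter, nor did Igfbp1, for which no count at all was recorded in the 7 samples.

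The receptors and substrates that carry the insulin signal fell more often than they rose. Of 27 tested genes for insulin and IGF receptors, substrates and brakes of the pathway, 6 fell (22.2%) and 3 rose (11.1%), with a median of -0.04. Irs2, the substrate through which insulin acts on liver glucose output, was at 165, 161, 192 and 145 CPM at basal and at 92.0, 97.9 and 78.5 after insulin, or 54.0% of basal. Its groups were well apart, with a log2 fold change of -0.89 (SE 0.11, edgeR adjusted p = 5.88e-07). Irs1 fell to 63.9% and Igf1r, the IGF-1 receptor, to 66.5% of basal. The insulin receptor itself (Insr) was at 119, 132, 128 and 111 CPM at basal and at 96.8, 101 and 101 after insulin. Its samples did not overlap either, yet its log2 fold change of -0.30 (SE 0.11) missed the threshold (edgeR adjusted p = 0.0536). Sgk1, a kinase downstream of PI 3-kinase, fell by 0.57 on the log2 scale, while its relative Sgk2 had the largest log2 fold change of the genes that rose. Sgk2 was nevertheless low, at 0.861, 0.873, 0 and 0.770 CPM at basal and at 2.44, 4.26 and 4.20 after insulin (log2 fold change 2.32, SE 0.51, edgeR adjusted p = 0.00163). Of the list members that rose, Pik3r3, a regulatory subunit of PI 3-kinase, went from 35.6, 27.6, 36.1 and 38.3 CPM to 63.2, 66.6 and 70.5, and Trib3, a pseudokinase that binds Akt, is described with the ATF4 genes.

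Genes of amino acid supply rose together. ATF4 is a transcription factor that raises amino acid transporters, serine and asparagine synthesis and aminoacyl-tRNA synthetases. Of its 30 listed targets and kindred genes, all tested, 22 rose (73.3%, against 8.31% of all genes) and none fell, the list median was 0.66 on the log2 scale, and 20 of the 22 passed in each fit without 1 sample. Slc7a11 (chr3:49892526-50443614), the cystine transporter, was at 4.59, 4.07, 4.17 and 3.85 CPM at basal and at 20.5, 20.5 and 19.7 after insulin. The insulin samples lay 4.82-fold above basal (log2 fold change 2.27, SE 0.21, edgeR adjusted p = 9.75e-10). Mthfd2, a mitochondrial enzyme of one-carbon metabolism, went from 20.4, 19.5, 18.1 and 25.2 CPM to 58.5, 64.6 and 65.0, a log2 fold change of 1.57 (SE 0.15, edgeR adjusted p = 8.85e-10). Chac1, an enzyme that degrades glutathione, rose 3.19-fold and Trib3 2.43-fold. Trib3 was at 7.85 to 10.3 CPM in the 4 basal samples and at 27.3, 19.4 and 21.2 after insulin. Chac1 spread more, from 1.44 to 4.36 CPM at basal, but its insulin samples (10.2, 8.13 and 8.18) remained above all of these.

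A promoter element read by C/EBP-ATF dimers, written here as TGATGNAA on either strand, was looked for in the RefSeq promoter windows (250 bases before to 50 after each start, GRCm38.p6). It was in 9 of 28 windows of 25 matched genes of the ATF4 list (32.1%), in 2.11% of the windows of tested genes and in 3.97% of all windows. Stretches of 100 of the 250 upstream bases, read along the strand of the gene, are shown for Slc7a11 and Chac1, which hold a match. Capitals mark the match, which the Slc7a11 stretch holds on both strands, while the upstream bases of Trib3 and Mthfd2 held none.
Slc7a11, chr3:50443617-50443716, minus strand: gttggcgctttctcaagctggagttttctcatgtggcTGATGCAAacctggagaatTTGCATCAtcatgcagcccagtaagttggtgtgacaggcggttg
Chac1, chr2:119351003-119351102, plus strand: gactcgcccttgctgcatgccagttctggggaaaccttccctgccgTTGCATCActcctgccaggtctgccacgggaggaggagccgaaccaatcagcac

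Chaperones of the endoplasmic reticulum rose as well. These proteins fold secreted and membrane proteins, and their genes are the classic targets of the unfolded protein response. Of 19 tested members 14 rose (73.7%) and none fell, with a median of 0.64, and 11 of the 14 passed in each fit without 1 sample. Hspa5 (BiP, chr2:34771970-34777547), the main chaperone of this compartment, was at 401, 423, 435 and 448 CPM at basal and at 1031, 980 and 893 after insulin. It had the smallest adjusted p of all genes tested, with a log2 fold change of 1.18 (SE 0.07, edgeR adjusted p = 1.2e-14). Sdf2l1, a partner of BiP, went from 12.9, 12.5, 15.3 and 14.6 CPM to 32.0, 38.3 and 41.1, or 2.70-fold. Hyou1, a large chaperone of the same compartment, rose 2.10-fold, and Xbp1, a transcription factor of the response, 1.86-fold.

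The element of this response, CCAAT followed after 9 bases of any kind by CCACG, on either strand, was in 7 of 16 windows of the list (43.8%), in 0.125% of the windows of tested genes and in 0.119% of all windows. The stretch upstream of the RefSeq start of Hspa5 is shown because this gene had the smallest p and the stretch holds the element. The match is in capitals, its last base 47 bases before that start. The gene coordinates given above come from GENCODE, where the gene starts earlier, so that the stretch lies inside them. No match was found upstream of Sdf2l1.
Hspa5, chr2:34771984-34772083, plus strand: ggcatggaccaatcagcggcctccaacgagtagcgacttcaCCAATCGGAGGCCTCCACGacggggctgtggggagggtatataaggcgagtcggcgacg

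Most genes of sterol synthesis rose. Of 25 genes of cholesterol synthesis and uptake, all tested, 21 rose (84.0%) and none fell, and the list median was 0.54 on the log2 scale. All 25 had a log2 fold change above 0, and 18 of the 21 passed in each fit without 1 sample. Hsd17b7, an enzyme of late sterol synthesis, was at 117, 127, 123 and 127 CPM at basal and at 216, 220 and 231 after insulin, a log2 fold change of 0.85 (SE 0.08, edgeR adjusted p = 9.75e-10). Tm7sf2, a sterol reductase, rose 1.81-fold, Idi1, which makes the building block of isoprenoids, 1.69-fold, and Lss, which closes the sterol rings, 1.60-fold. The change of Hmgcs1, the synthase at the head of the pathway, was smaller (1.29-fold). It missed the threshold without insulin replicate 3 (edgeR adjusted p = 0.0588). Srebf1, the gene of SREBP-1, was at 249, 243, 266 and 237 CPM at basal and at 272, 271 and 271 after insulin. Its samples did not overlap, but a log2 fold change of 0.13 (SE 0.10) gave an edgeR adjusted p of 0.415.

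Of 17 tested genes of fatty acid synthesis and desaturation, 11 rose (64.7%) and none fell, with a median of 0.49, and 8 of the 11 passed in each fit without 1 sample. Acss2, which makes acetyl-CoA from acetate, was at 9.19, 12.5, 14.8 and 20.8 CPM at basal and at 34.2, 39.5 and 32.9 after insulin. Basal values were spread over a wide range and still lay below all insulin values (log2 fold change 1.29, SE 0.17, edgeR adjusted p = 1.57e-06). Scd1, the desaturase that makes oleate, went from 545, 646, 625 and 600 CPM to 1122, 1258 and 1144, a log2 fold change of 0.96 (SE 0.08, edgeR adjusted p = 2.02e-10). Acaca, which makes malonyl-CoA, rose 1.71-fold.

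A sterol regulatory element, TCACNCCAC on either strand, was in 1 of 20 windows of the cholesterol list (5.0%), in 1.22% of the windows of tested genes and in 1.24% of all windows. The 1 window was that of Hmgcs1, shown here with the match in capitals, 129 bases before the start.
Hmgcs1, chr13:119690168-119690267, plus strand: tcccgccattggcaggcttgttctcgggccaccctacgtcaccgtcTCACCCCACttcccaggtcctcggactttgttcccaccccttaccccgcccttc

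Glycolysis and the targets of hypoxia-inducible factors also rose. Of 19 tested genes of glucose uptake, glycolysis and lactate export 12 rose (63.2%) and none fell, with a median of 0.54. Hk2, the hexokinase of growing cells, was at 14.9, 13.1, 13.9 and 12.1 CPM at basal and at 37.3, 37.5 and 38.02 after insulin. The 3 insulin samples were nearly equal, and the log2 fold change was 1.48 (SE 0.13, edgeR adjusted p = 2.71e-10). Pfkfb4, which sets the level of an activator of glycolysis, rose 2.0-fold, Pgam1, a glycolytic mutase, 1.795-fold, and Ldha, lactate dehydrogenase, 1.70-fold. In the pentose phosphate pathway 3 of 8 genes rose (37.5%), among them G6pdx, which opens it (1.501-fold), and Pgd, its next dehydrogenase (1.49-fold). Of 16 tested genes of the hypoxia list 13 rose (81.3%) and none fell, with a median of 0.55. Vegfa, the angiogenic growth factor, was at 20.96, 17.5, 16.2 and 15.9 CPM at basal and at 43.4, 44.5 and 53.1 after insulin, or 2.66-fold. Egln3, a prolyl hydroxylase that marks HIF for degradation, rose 1.99-fold, from 14.4 to 19.8 CPM at basal to 31.4 to 38.5 CPM.

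Genes that the cell uses to enter S phase rose, while mitotic genes rose and fell at close to the shares of all genes. Of 34 genes of DNA replication and S phase, all tested, 19 rose (55.9%) and 1 fell, with a median of 0.40, and 32 of the 34 had a log2 fold change above 0. Ccne2 (cyclin E2), which starts DNA replication with Cdk2, was at 8.04, 6.40, 7.40 and 7.45 CPM at basal and at 15.6, 13.9 and 17.9 after insulin. The groups were apart, with a log2 fold change of 1.13 (SE 0.19, edgeR adjusted p = 7.74e-05). The count depended on single samples: 11 of its 20 calls were made in each fit without 1 sample, and the number that rose lay between 13 and 20. Ccne1 (cyclin E1) rose 1.79-fold and missed the threshold without insulin replicate 1 (edgeR adjusted p = 0.129). Of 30 mitotic genes 3 rose and 3 fell (10% each), with a median of 0.05. Among them Bub1, a kinase of the spindle checkpoint, rose 1.45-fold and was the only one of the 6 whose call was made in each of the 7 fits.

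Regulators of G1 were divided. Of 17 tested G1 cyclins and CDK inhibitors 4 rose (23.5%) and 2 fell (11.8%), and 3 of the 6 passed in each fit without 1 sample. Those that rose numbered 2 without basal replicate 1 or insulin replicate 3, where 1 fell. Ccnd3 (cyclin D3) rose 1.39-fold and Cdk2, the partner of cyclin E, 1.42-fold, while Rbl2 (p130), a pocket protein of quiescent cells, fell to 70.9% of basal. Ccnd1 (cyclin D1) was at 735, 666, 649 and 721 CPM at basal and at 660, 604 and 685 after insulin. These groups overlapped, and the log2 fold change of -0.09 (SE 0.08) did not pass (edgeR adjusted p = 0.483). Cdkn1b (p27) was at 169 to 194 CPM at basal and 171 to 190 after insulin (log2 fold change -0.05, SE 0.11, edgeR adjusted p = 0.790), and Ccng2 (cyclin G2), like Cdkn1b a known FoxO target, at 248 to 266 and 218 to 264 CPM (log2 fold change -0.12, SE 0.11, edgeR adjusted p = 0.515).

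Autophagy genes fell more often than they rose. Of 30 tested genes of autophagy and the lysosome 9 fell (30%, against 7.99% of all genes) and 2 rose (6.67%), with a median of -0.11. Wdr45 and Wipi1, related proteins that bind phosphoinositides on the forming autophagosome, are given first. Wdr45 was at 76.4, 72.7, 89.3 and 72.4 CPM at basal and at 52.7, 39.9 and 31.6 after insulin, with a log2 fold change of -0.90 (SE 0.14, edgeR adjusted p = 2.89e-05). Wipi1 went from 69.2, 82.0, 81.4 and 73.2 CPM to 39.8, 48.8 and 38.5, a log2 fold change of -0.86 (SE 0.11, edgeR adjusted p = 4.12e-07). No insulin sample reached a basal one for either gene. Sqstm1 (p62), the adaptor that carries ubiquitinated cargo, fell to 65.2% of basal from 914 to 1099 CPM, and Gabarapl1, an ATG8 protein, to 67.3%. Atp6v1h, a subunit of the proton pump that acidifies lysosomes, rose 1.32-fold.

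**Figure D2:**
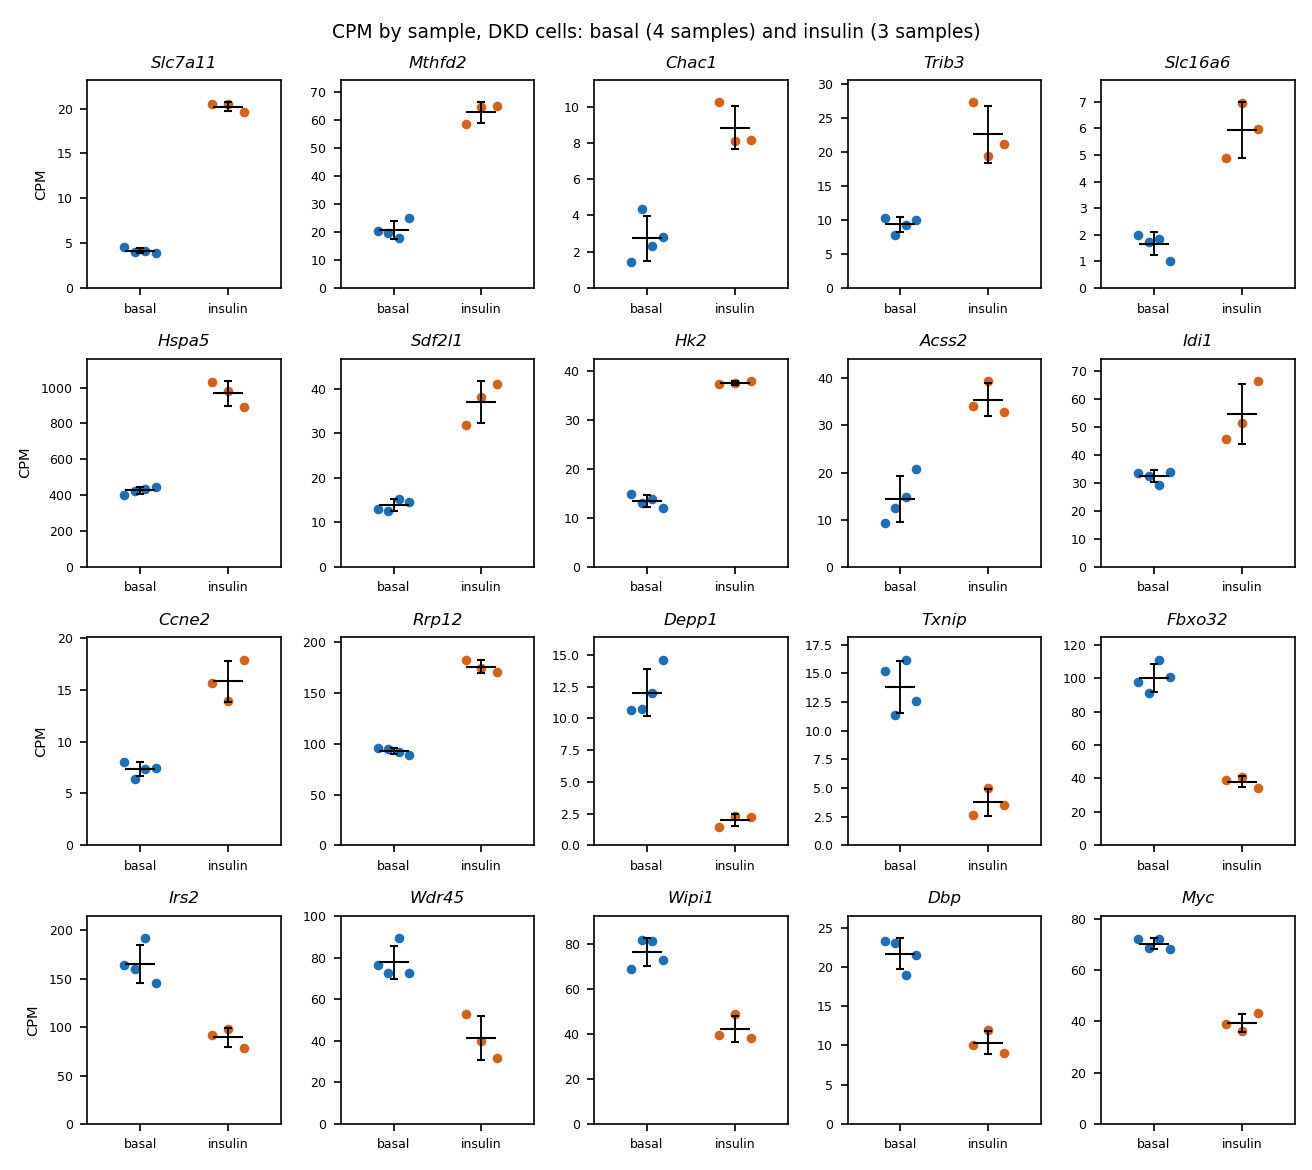
CPM of 20 named genes in each DKD sample, 4 basal (blue) and 3 after insulin (orange), with bars for the mean and SD of each group and axes from 0. The groups are apart in all 20 genes, from Slc7a11 (3.85 to 4.59 against 19.7 to 20.5 CPM) to Myc (68.3 to 72.2 against 36.4 to 43.3 CPM).

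Of 27 tested feedback genes of ERK signalling and immediate early genes none rose and 4 fell (14.8%), with a median of -0.08. Under other settings 0 to 2 rose and 1 to 7 fell. Without 1 sample 0 to 1 rose and 2 to 4 fell, with 2 without basal replicate 2 or 4 or insulin replicate 1 or 2. Myc, a driver of growth, was at 72.1, 68.6, 72.2 and 68.3 CPM at basal and at 38.8, 36.4 and 43.3 after insulin. This fall to 56.7% of basal left the groups far apart (log2 fold change -0.82, SE 0.12, edgeR adjusted p = 1.05e-05). The other 3, among them Dusp4, a phosphatase of ERK, fell to between 76.2% and 83.6% of basal, and each of the 3 missed the threshold in at least 3 of the 7 fits without 1 sample. Dusp5, a nuclear ERK phosphatase, was at 2.58 to 4.63 CPM at basal and at 2.44 to 2.87 after insulin, and Spry4, a brake of receptor signalling, at 0.873 to 2.58 and 1.16 to 2.20 CPM, both without a call. Areg (amphiregulin), a ligand of the EGF receptor, was at 0.861, 1.16, 0.463 and 0.257 CPM at basal and at 3.66, 3.48 and 1.77 after insulin, and Ereg (epiregulin), another such ligand, at 4.59, 4.95, 1.851 and 5.39 and then 12.9, 13.5 and 18.1 CPM. Both were low, and the lack of overlap between their groups was a condition for naming them. Their log2 fold changes were 2.0 and 1.755 (edgeR adjusted p = 0.00344 and 2.03e-05).

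Genes of interferon and NF-kB signalling fell in small numbers. Of 21 tested interferon-stimulated genes 3 fell (14.3%) and 1 rose (4.76%), with a median of -0.18, and the remaining members of the 42 listed did not pass the filter. The 3 were neighbours on chromosome 19, the antiviral RNA-binding genes Ifit2, Ifit3 and Ifit3b. Ifit3 (chr19:34583531-34588731) was at 46.2, 40.7, 42.6 and 38 CPM at basal and at 11.2, 8.51 and 8.40 after insulin, and Ifit3b at 49.1, 43.3, 36.1 and 38.8 and then 8.29, 5.42 and 6.85 CPM. The log2 fold changes were -2.14 (SE 0.17) for Ifit3 and -2.58 (SE 0.17) for Ifit3b (edgeR adjusted p = 2.82e-11 and 3.21e-13). Ifit3 and Ifit3b are close copies, so that the counting could have divided reads between them. Of 22 tested genes of chemokines, NF-kB feedback and the acute phase 7 fell (31.8%) and 2 rose (9.09%), with a median of -0.20. Among those that fell were Nfkbia, the inhibitor that NF-kB itself induces (68.7% of basal), Csf1, the growth factor of macrophages (67.2%), and the chemokine Ccl20 (66.9%). Cxcl5, a neutrophil chemokine, rose 1.34-fold from 1144 to 1294 CPM, but not without insulin replicate 3 (edgeR adjusted p = 0.102).

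Csf1r, the receptor of Csf1, is a marker of macrophages and was counted at 15.2, 15.7, 15.3 and 16.4 CPM at basal and at 6.34, 5.80 and 4.64 after insulin. It fell by 1.495 on the log2 scale (SE 0.21, edgeR adjusted p = 3.23e-06). Of 7 macrophage or leukocyte markers it and Cd14 were the ones tested, Adgre1 and Clec4f were at 0, and Ptprc and Cd68 were at most at 1.95 CPM in any sample. The summed level of the 7 was 123 to 133 CPM at basal and 98.6 to 123 after insulin, nearly all of it Cd14.

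Clock genes moved in opposite directions. Of 17 tested 4 rose and 4 fell (23.5% each). Arntl (Bmal1), the activator of the clock, was at 5.17, 7.56, 9.25 and 9.76 CPM at basal and at 13.9, 19.7 and 22.6 after insulin, or 2.37-fold. Dbp, an output gene that Bmal1 activates, went from 23.3, 23.0, 19.0 and 21.6 CPM to 10, 12 and 9.06 (log2 fold change -1.10, SE 0.18, edgeR adjusted p = 3.68e-05). Nr1d2, which represses Arntl, fell to 66.0% of basal. Since the labels give the basal samples another time than the insulin samples, time of collection and insulin cannot be told apart for these genes from the labels alone.

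Of 35 genes of ribosome biogenesis and RNA polymerase I 8 rose (22.9%) and 3 fell (8.57%), with a median of 0.15. Rrp12, a factor of ribosome export, was at 96.2, 94.8, 91.6 and 89.4 CPM at basal and at 183, 174 and 170 after insulin (log2 fold change 0.92, SE 0.08, edgeR adjusted p = 6.21e-10). Npm1 (nucleophosmin), a nucleolar chaperone, went the other way, from 800 to 871 CPM to 565 to 590. Among 13 tested host transcripts of small nucleolar RNAs, Snhg5 rose 1.57-fold and Zfas1 fell from 111, 111, 93.5 and 118 CPM to 50.5, 49.9 and 41.1, or 43.1% of basal. Of 28 tested genes of fatty acid oxidation 2 fell (7.14%) and 1 rose (3.57%), both below the shares of all genes. The acyl-CoA dehydrogenases Acadl and Acadm fell to 76.3% and 79.3% of basal, and Acsl1, which activates fatty acids, rose 1.46-fold. Of 28 genes of the TCA cycle and pyruvate entry 6 rose (21.4%) and 2 fell (7.14%). Idh1, the cytosolic isocitrate dehydrogenase, rose 1.48-fold and Idh2, its mitochondrial relative, fell to 73.4%. Of 35 tested nuclear genes of complex I only Ndufb2 passed (1.46-fold), and not without basal replicate 1, insulin replicate 1 or insulin replicate 2 (edgeR adjusted p = 0.0893, 0.135 and 0.0763). The list median was 0.04.

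Of 13 tested transcripts of the mitochondrial genome only the ribosomal RNAs mt-Rnr1 and mt-Rnr2 rose. mt-Rnr1 was at 158, 203, 182 and 302 CPM at basal and at 326, 467 and 275 after insulin. Basal replicate 4 was above insulin replicate 3, and the call (log2 fold change 0.74, SE 0.21, edgeR adjusted p = 0.0131) was lost without basal replicate 1 (0.0665) or insulin replicate 2 (0.164). The call of mt-Rnr2 was lost without the same samples (edgeR adjusted p = 0.0514 and 0.258). The libraries were made from polyA RNA, and how far the rRNA of mitochondria is captured in them was not tested.

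Further lists were divided or small. Of 19 tested genes of glutathione and NRF2 7 rose (36.8%) and 1 fell, among them Hmox1 (heme oxygenase, 1.55-fold), Srxn1 (sulfiredoxin, 1.55-fold) and Slc7a11 above. Of these 8, 3 passed in each fit without 1 sample, and 4 rose without basal replicate 2. Of 20 tested matrix genes 4 rose (20%) and 5 fell (25%): among them, the YAP targets Ccn1 (Cyr61) and Thbs1 fell to 55.0% and 62.3% of basal. Of these 9, 4 passed in each fit without 1 sample, and those that rose numbered 1 without insulin replicate 1 and 2 without basal replicate 4 or insulin replicate 2. In the BCL2 family 3 of 14 fell, and 1, Bnip3, a mitophagy receptor, rose from 20.4 to 25.9 CPM to 34.2 to 47.5 CPM. Bnip3 was the 1 of these 4 that passed in each fit without 1 sample, and the number that fell was 0 to 4 in those fits, with 0 without insulin replicate 2. Of 14 FoxK genes and partners 2 rose and 3 fell. Ogt, the enzyme that attaches O-GlcNAc, rose 1.52-fold. Foxk1 fell by 0.42 on the log2 scale (SE 0.14, edgeR adjusted p = 0.0347) and Foxk2 rose by 0.36 (SE 0.10, edgeR adjusted p = 0.0140). Both missed the threshold when single samples were left out: Foxk1 without basal replicate 2, basal replicate 3, insulin replicate 1 or insulin replicate 2 (edgeR adjusted p = 0.0881, 0.0668, 0.179 and 0.130), Foxk2 without basal replicate 4, insulin replicate 2 or insulin replicate 3 (0.0702, 0.0526 and 0.0692). Of 17 tested hepatocyte lineage factors and plasma proteins, Trf (transferrin) rose 1.63-fold and Foxa1, a pioneer factor of liver, fell to 71.0% of basal, with a list median of 0.14. Trf missed the threshold without basal replicate 4 or insulin replicate 1 (edgeR adjusted p = 0.0664 and 0.210), and Foxa1 without insulin replicate 1 or 2 (0.0614 and 0.0600).

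**Figure D3:**
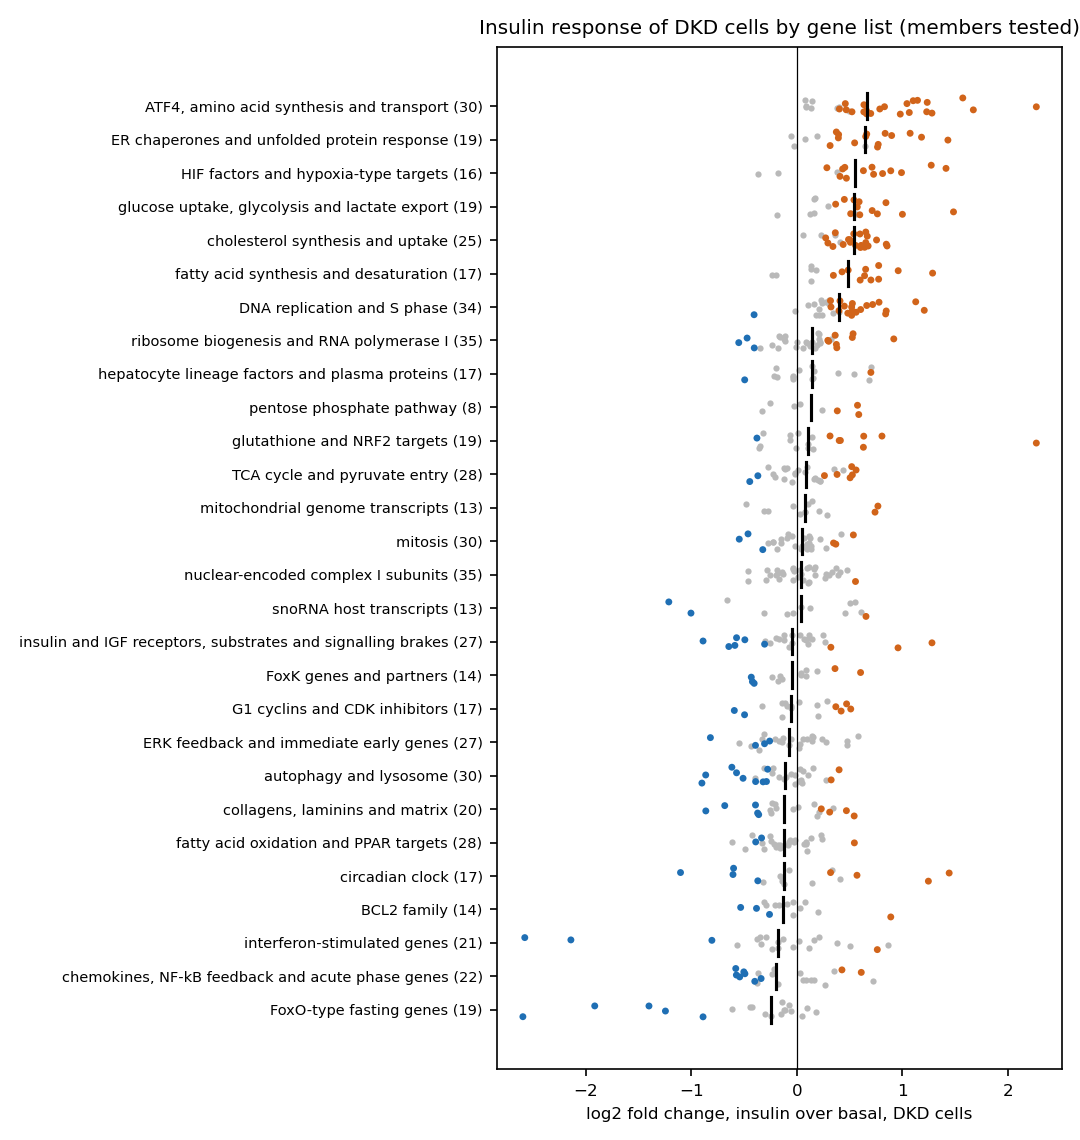
Log2 fold change of insulin over basal in DKD cells for the tested members of 28 gene lists, sorted by list median, with the number tested in brackets. Each point is a gene, orange where it rose, blue where it fell and grey where the edgeR adjusted p was 0.05 or more, and the black bar is the list median, from 0.66 (ATF4) to -0.24 (FoxO-type). Vertical position within a list is arbitrary.

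Among the 12 protein-coding genes with the largest rises and the 12 with the largest falls, several belonged to none of the pathways above. Aldh1a7, an aldehyde dehydrogenase with close relatives in the genome, went from 1.72, 2.91, 1.851 and 2.82 CPM to 8.05, 9.67 and 8.84 (3.65-fold), Slc16a6, a monocarboxylate transporter, rose 3.54-fold and Gda, guanine deaminase, 2.89-fold. Tcp11l2 went from 24.1, 21.5, 28.7 and 26.7 CPM to 6.10, 10.1 and 10.2, and Shroom3, an organiser of apical actin, from 8.33 to 14.1 CPM to 2.87 to 5.12. Prss8, a membrane serine protease, N4bp2l1, Ccdc65 and Cep112 fell to between 27.9% and 33.8% of basal levels under 9 CPM. Angptl6, Far2 and Rufy4, all under 4 CPM, had log2 fold changes of 1.70, 1.66 and -1.69 whose calls were lost in 4, 3 and 3 of the 7 fits without 1 sample. The edgeR adjusted p of Angptl6 was 0.0820, 0.0613 and 0.0567 without basal replicates 1, 3 and 4 and 0.192 without insulin replicate 3. That of Far2 was 0.0697 without basal replicate 1 and 0.0931 and 0.118 without insulin replicates 2 and 3 (edgeR), and that of Rufy4 0.0580 without basal replicate 2 and 0.0511 and 0.0727 without insulin replicates 1 and 2. Of 300 tested long non-coding RNAs 22 rose and 6 fell, and of 14 tested small nucleolar RNAs 3 rose. Snord83b was the one of these with the largest rise, from 1.45 to 2.05 CPM to 6.34, 8.90 and 6.63 CPM (log2 fold change 1.99, SE 0.40, edgeR adjusted p = 5.41e-04).

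The core letters that forkhead factors bind, GTAAACA on either strand, were in 4.24% of the promoter windows of genes that fell, 2.13% of those of genes that rose, 2.77% of those of tested genes and 3.65% of all windows. In the FoxO list 2 of 17 windows held them (11.8%). The stretch upstream of Txnip is shown as that of a FoxO-list gene that fell and holds a match, in capitals, 115 bases before the start. No match was found upstream of Depp1 or Irs2, and Fbxo32 had no entry. The E-box CACGTG was in 12.9%, 11.1% and 10.3% of the windows of genes that rose, of genes that fell and of tested genes.
Txnip, chr3:96557789-96557888, plus strand: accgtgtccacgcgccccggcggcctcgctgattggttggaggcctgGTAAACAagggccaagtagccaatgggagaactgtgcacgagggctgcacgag

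The response in DKD cells was next set beside that of Control cells, which rests on other samples. One Control sample, basal replicate 1, stood apart from its group: a chi-square statistic per degree of freedom over genes was 14.7 to 20.6 between it and the other 3 and 2.52 to 4.64 among those 3, against 1.92 to 4.47 for pairs within the DKD groups. Several values that rest on it are therefore given with and without it. Of the 1853 genes called in DKD cells 1062 (57.3%) were called in the same direction in Control cells, where they made up 36.75% of 2890 calls (25.4% of the genes tested), and 18 were called in the opposite direction. Without Control basal replicate 1 these numbers were 987 (53.3%), 34.0% of 2901 calls and 14. A call in one genotype and not in the other does not show a difference, so the difference itself, the insulin effect in DKD minus that in Control cells, was tested for each gene. It passed in 175 genes (1.54%), with 114 (1.0%) higher and 61 (0.537%) lower in DKD cells. Without Control basal replicate 1 there were 206 higher and 152 lower, which included 107 of the 114 and all 61. The counts fell to 35 and 25 without DKD insulin replicate 2 and to 22 and 10 when the 4 groups were fitted alone. Of the 175, 121 were called in Control cells only, 27 in DKD cells only and 18 in both with opposite signs. In 122 of the 175 (69.7%, against 30.4% of all tested genes) the basal Control group was the one whose mean lay farthest from the median of the other 3 groups on a log2 scale, and in 120 (68.6%, against 31.9%) without its replicate 1. The part of differences between basal samples in these counts was not tested.

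**Figure D4:**
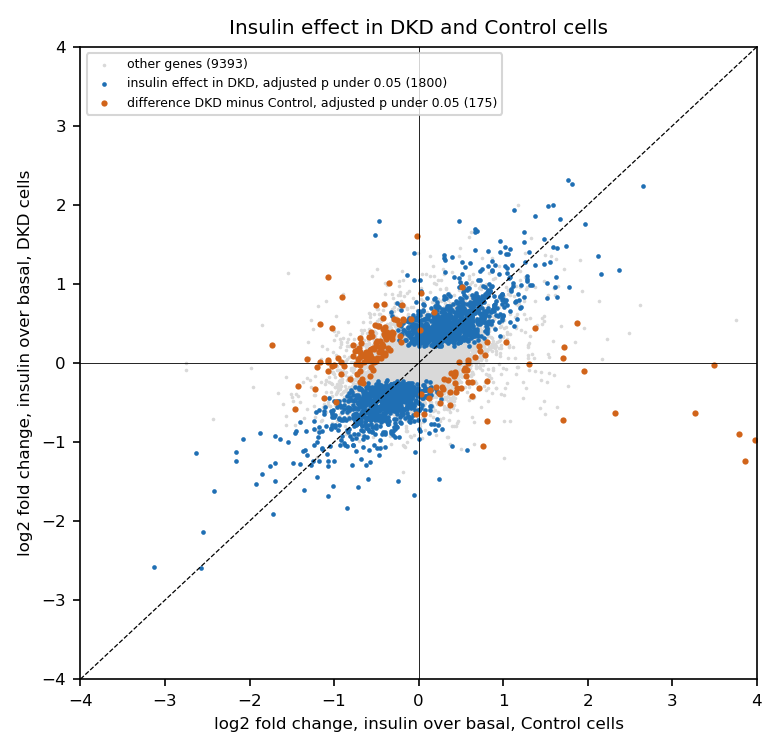
Log2 fold change of insulin over basal in DKD cells against that in Control cells, each point a gene, with blue for genes called in DKD cells without a called difference (1800), orange for the 175 genes with a difference at an edgeR adjusted p under 0.05 and grey for the rest. The dashed line marks equal effects and 8 genes lie outside the axes, which end at 4.

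For the lists above the medians in DKD and Control cells are given side by side: 0.66 in DKD and 0.78 in Control cells for ATF4 genes, 0.64 and 0.45 for ER chaperones, 0.54 and 0.52 for cholesterol, 0.49 and 0.42 for fatty acids, 0.54 and 0.43 for glycolysis, 0.40 and 0.63 for S phase and -0.11 and -0.17 for autophagy. Without Control basal replicate 1 the Control medians were 0.85, 0.61, 0.55, 0.39, 0.55, 0.74 and -0.22 in the same order. For the FoxO list they were -0.24 and -0.37 (-0.28 without that sample), and 10 members fell in Control against 5 in DKD cells. The difference was not called for any FoxO-list member: Irs2 fell by 0.89 in DKD and by 1.47 in Control cells, with a difference of 0.58 (SE 0.16, edgeR adjusted p = 0.0523), Ccng2 had a difference of 0.56 (SE 0.16, edgeR adjusted p = 0.0532), Cdkn1b of 0.50 (SE 0.15, edgeR adjusted p = 0.0907) and Fbxo32 of 0.45 (SE 0.15, edgeR adjusted p = 0.125). These differences and the count of 10 are given only with Control basal replicate 1 included. An adjusted p above the threshold does not show that the effects were alike. For the mitochondrial genome the medians were 0.08 and -0.39 (-0.51 without Control basal replicate 1), and 3 of its 13 transcripts had a called difference.

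Ccnd1 (chr7:144929931-144939925) responded in Control cells and had no call in DKD cells. In Control cells it rose from 340, 455, 403 and 459 CPM to 599, 629 and 580, a log2 fold change of 0.54, while in DKD cells the basal samples were at 649 to 735 CPM and the insulin samples at 604 to 685. The difference was -0.63 (SE 0.12, edgeR adjusted p = 0.00211) and was called in each of the 14 fits without 1 sample, but not when the 4 groups were fitted alone (edgeR adjusted p = 0.0768). Scd1 rose more in DKD cells (0.96) than in Control cells (0.51), where basal values were 947 to 1168 and insulin values 1491 to 1531 CPM. Its DKD samples were lower in both conditions, so that insulin brought DKD cells to 1122 to 1258 CPM. The difference of 0.45 (SE 0.12, edgeR adjusted p = 0.0406) was lost in 9 of the 14 fits without 1 sample, with an adjusted p of up to 0.164 in edgeR. Bnip3 had no call in Control cells (log2 fold change 0.03, edgeR adjusted p = 0.916), with 39.8 to 46.4 CPM at basal and 37.1 to 50.9 after insulin in Control cells against 20.4 to 25.9 and 34.2 to 47.5 in DKD cells (difference 0.86, SE 0.22, edgeR adjusted p = 0.0405, lost in 9 of 14 fits).

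The 5 protein-coding genes with the largest positive and the 5 with the largest negative difference follow. Cox7c, a subunit of cytochrome oxidase, had a difference of 1.97 (SE 0.51, edgeR adjusted p = 0.0423), with basal Control replicate 1 at 543 CPM and the other 3 at 108 to 143, while its DKD samples stood at 44.7 to 98.8 CPM in both conditions. Without that Control sample the difference was 1.14 (edgeR adjusted p = 0.0476). Krt10, a keratin, had a difference of 1.66 (SE 0.36, edgeR adjusted p = 0.0116), its Control samples going from 16.8 to 37.1 CPM down to 5.97 to 14.2 and its DKD samples from 6.02 to 11.6 to 10.5 to 14.2. Hint3, a nucleotide hydrolase, was at 39.5 to 56.5 CPM in basal Control samples and at 13.96 to 24.9 in the other groups (difference 1.38, SE 0.35, edgeR adjusted p = 0.0373). In all of these it was the basal Control samples that stood above the rest. Kyat3, which makes kynurenic acid, in contrast rose in DKD cells, from 3.20 to 5.46 CPM to 8.40 to 10.1 (log2 fold change 1.01), and was at 4.48 to 10 in Control cells (difference 1.36, SE 0.35, edgeR adjusted p = 0.0373).

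Of those with a negative difference, Jdp2, a repressor that pairs with AP-1 proteins, was at 8.68 to 16.2 CPM at basal and 16.4 to 20.5 after insulin in Control cells and at 15.9 to 20.8 and 12.8 to 14.6 in DKD cells (difference -1.04, SE 0.24, edgeR adjusted p = 0.0195). Crocc2, a rootletin relative, fell from 6.02 to 8.73 CPM to 2.32 to 4.42 in DKD cells and stood at 1.74 to 3.21 and 3.43 to 6.32 in Control cells (difference -1.82, SE 0.40, edgeR adjusted p = 0.0146). Ftl1-ps1, a copy of the ferritin light chain gene whose reads may come from Ftl1, had a difference of -1.52 (SE 0.32, edgeR adjusted p = 0.00960), with Control samples of 3.75 to 8.22 and 10.1 to 28.0 CPM and DKD samples of 17.2 to 22.1 and 18.4 to 26.1. Without Control insulin replicate 2, Jdp2 and Crocc2 missed the threshold (edgeR adjusted p = 0.0643 and 0.0808), as did Jdp2 without DKD insulin replicate 2 (0.0521) and Ftl1-ps1 without Control insulin replicate 3 (0.0561). The remaining genes of these 10, Kbtbd7, Psmc3ip and Sergef, were called in 4, 2 and 2 of the 14 fits without 1 sample, and Cox7c, Hint3 and Kyat3 in 7, 5 and 5. mt-Rnr1, which rose in DKD cells, was at 310 to 578 CPM at basal and 274 to 393 after insulin in Control cells, a difference of 1.24 (SE 0.30, edgeR adjusted p = 0.0235), lost in 5 of the 14 fits.

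**Figure D5:**
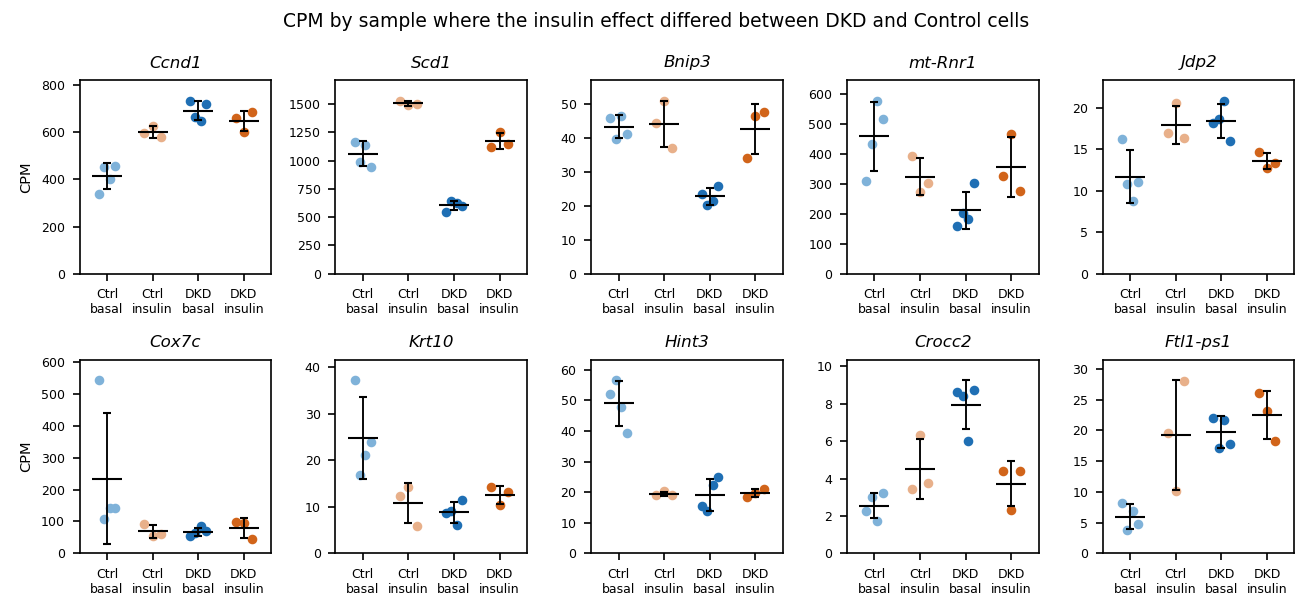
CPM of 10 genes with a called difference in insulin effect, in each Control and DKD sample (4 basal and 3 insulin samples per genotype), with the mean and SD of each group and axes from 0. Ccnd1 was at 340 to 459 and 580 to 629 CPM in Control cells and at 649 to 735 and 604 to 685 CPM in DKD cells, and basal Control replicate 1 (543 CPM) stands alone for Cox7c.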

How the data were processed

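Poly(A) RNA of AML12 cells was sequenced. Per the submitters' processing notes, reads were handled with CASAVA 1.8, aligned with STAR 2.4.2a to GRCm38.p4 and assigned to genes with featureCounts. The authors deposited 1 file per sample with raw counts, not normalized. Strand and multi-mapping settings are not given in the sources used here, so that antisense, overlapping and copied genes are uncertain. Samples were grouped by their labels.

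From the counts, genes were filtered (filterByExpr, 11368 genes kept), scaled by TMM and fitted in 1 model of 8 groups over all 30 samples with the quasi-likelihood test of edgeR 4.0.16 (R 4.3.3). Adjusted p-values are Benjamini-Hochberg values over all genes tested. The difference between genotypes was a contrast of the same model. Depth was 2141460 to 4455447 counts per DKD sample and the median SE of a log2 fold change 0.14.

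The genes named were the 12 protein-coding genes that rose and the 12 that fell with the largest changes (adjusted p under 0.05, average log2-CPM of at least 1, no overlap), 3 of other types each way, up to 4 each way per list, 5 differences each way and a set of pathway genes. Members and lists were chosen with earlier results of these data known. Gene names and coordinates came from GENCODE M21 (GRCm38), promoters from RefSeq (GRCm38.p6, 32851 windows). Alternatives were DESeq2 1.42.0, limma-voom (limma 3.58.1), other count filters, fewer groups, GC and length offsets, the replicate number as a block, and leaving out each sample. Some items are not reported here, and many list members are given only within counts.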

Additional observations from a re-analysis of the deposited data

Results flagged for a closer look

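A basal sample stood far from the other 3 of its group for 7 of 167 named genes in DKD cells and for 2 of 14 in Control cells, by a gap that took most of the range of the group (Dixon critical value at 95%). Chance gives this in about 1 in 20 groups. In DKD cells these were Sgk2 in replicate 3 (0.0 CPM, others 0.770 to 0.873), Gda in replicate 2 (2.91, others 4.11 to 4.31), G6pdx in replicate 3 (36.6, others 33.4 to 33.6), Ndufb2 in replicate 1 (40.8, others 54.9 to 57.8), Lamb2 in replicate 4 (336, others 389 to 398), Ogt in replicate 1 (227, others 273 to 280) and Crocc2 in replicate 3 (6.02, others 8.43 to 8.73). In Control cells they were Cox7c in replicate 1 (543, others 108 to 143) and Psmc3ip in replicate 1 (5.39, others 2.98 to 3.25).

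The insulin effect differed between DKD and Control cells, by the test of the difference itself, in 14 named genes. It was higher in DKD cells for Scd1 by 0.45 on the log2 scale, Bnip3 by 0.86, mt-Rnr1 by 1.24, Cox7c by 1.97, Krt10 by 1.66, Kbtbd7 by 1.48, Hint3 by 1.38 and Kyat3 by 1.36. The difference was -1.82 for Crocc2, -1.54 for Psmc3ip, -1.52 for Ftl1-ps1, -1.04 for Jdp2, -1.04 for Sergef and -0.63 for Ccnd1. All 14 remained called without Control basal replicate 1.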

How the results depend on the processing

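With at least 10 counts in every sample the rule of the study gave 302 genes up and 250 down, since fewer genes were tested. Fitting the DKD groups alone gave 1206 genes up and 1153 down at an adjusted p under 0.05. By the rule of the study that fit gave 447 and 397. Without 1 sample the ranges were 471 to 578 up and 381 to 506 down by that rule, and 594 to 859 up and 570 to 816 down at an adjusted p under 0.05, lowest without DKD insulin replicate 2. GC and length offsets gave 1019 genes up and 1006 down at an adjusted p under 0.05. By the rule of the study the offsets gave 512 and 403. Genes with a higher effect in DKD cells numbered 73 with GC and length offsets, 274 with at least 1 count in any sample, 22 with only the groups compared and 63 with the replicate block and offsets. Those with a lower effect numbered 10 with only the groups compared and 40 with the block and offsets. Without 1 sample these counts ranged from 35 to 206 and from 25 to 152. Hint3 was the only one of the 14 named differences called with only the groups compared, and 9 of the 14 were called with the replicate block. The cause was not tested. The insulin effect in DKD cells, not called in any case, changed sign for Cox7c (-0.0072 with block and offsets) and Hint3 (-0.0835 with offsets, -0.1239 with both, -0.0429 and -0.0773 without DKD basal replicates 1 and 2, and between -0.0773 and 0.2432 over the fits without 1 sample).

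Replicate numbers did not pair the DKD samples: same-numbered DKD samples had correlations of -0.004, -0.042 and -0.149. Same-numbered Control samples had correlations of 0.072, 0.064 and 0.074, against -0.138 to 0.093 for Control samples with unlike numbers. The block gave 887 up and 852 down, 539 and 440 by the rule of the study, and 87 and 51 for the difference. For named genes, 1235 results of the insulin effect kept their side and direction under alternatives other than leaving out a sample, 49 fell below the threshold and 4 passed it. Depth limits genes of a few CPM most.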

Other observations

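Values of 3 transcripts, chosen after their values were seen, separated basal DKD samples from the other basal samples. Rps2-ps10, a ribosomal protein pseudogene, was at 4.59 to 12.03 CPM in basal DKD samples and 9.27 to 17.4 after insulin, at 0.0 in all basal Control samples and 4.42 to 14.5 after insulin. In FoxK1 knockdown cells it was at 0.0 to 0.660 and 8.91 to 15.7 CPM, and in FoxK2 knockdown cells at 0.0 to 0.220 and 2.87 to 12.4. Gm42939, an intronic transcript, was at 4.59 to 13.1 and 8.13 to 11.9 CPM in DKD cells and at 0.0 to 0.283 and 4.42 to 9.12 in Control cells. It was at 0.0 in all basal samples of both single knockdowns, and at 7.39 to 10.8 (FoxK1) and 5.29 to 13.5 CPM (FoxK2) after insulin. Gm13668, a processed pseudogene, was at 2.58 to 5.91 and 0.221 to 3.87 CPM in DKD cells and at 0.0 and 1.26 to 5.54 in Control cells. In FoxK1 knockdown cells it was at 0.0 to 0.330 and 1.49 to 2.60 CPM, and in FoxK2 knockdown cells at 0.0 to 0.220 and 1.93 to 3.78. For each of the 3, basal values of DKD cells thus overlapped those of insulin samples of Control cells, while basal samples of the other genotypes were at or near 0. What this has to do with the difference between DKD and Control cells was not tested. Reads of the pseudogenes Rps2-ps10 and Gm13668 may come from their parent genes.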
